A study of Mus musculus with 20 samples.

Results

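The genes of cholesterol synthesis and its sterol control were followed across 7 clonal lines of Swiss 3T3, an immortalized mouse embryo fibroblast strain. The set lists 32 genes by symbol, grouped by function: enzymes of the mevalonate pathway and of sterol synthesis, the SREBP control proteins, sterol transport and storage proteins, and the efflux transporters with their LXR regulators. Probe sets were assigned through the platform annotation. Of the 32, 29 had a probe set with a single gene symbol and are described among 18193 genes tested. Acat2, Soat1 and Nr1h2 were not paired with such a probe set and are not analysed here.

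The labels call 4 lines preadipose, that is able to become fat cells: Swiss 19, Swiss 9, Swiss 8 and Swiss 2. They call the other 3, Swiss 22, Swiss 5 and Swiss 3, non-adipogenic. Each line is 1 clone of the parental strain and was measured on 3 arrays, or 2 for Swiss 19, which gave 20 arrays, 11 preadipose and 9 non-adipogenic. All cells grew in bovine serum under conditions that do not induce differentiation and were collected while still dividing. The study set preadipose against non-adipogenic clones, so the clone is the replicate of the class, and nothing in the labels said that arrays of a clone came from separate cultures. Tests between lines therefore measure only the spread between arrays, which may be technical.

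Cells build cholesterol from acetyl units through mevalonate and farnesyl diphosphate to squalene, lanosterol and the later sterols. A side branch makes geranylgeranyl diphosphate for protein prenylation. When membranes of the endoplasmic reticulum run low in sterol, SCAP escorts the SREBP transcription factors to the Golgi, where they are cleaved, and the released fragment raises transcription of synthesis genes together with NF-Y and Sp1. INSIG proteins hold SCAP back when sterol is plentiful, while the LXR receptors, which sense oxysterols, raise the efflux transporters. Fibroblasts make their own sterol and also take it up from serum lipoproteins.

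The part of promoters in the differences between lines was not tested, and those of some members are shown first, as a description. Each is the stretch of 250 bases before the annotated gene start on the strand of the gene (RefSeq, GRCm38.p6). Capitals mark the core of the sterol regulatory element (TCACNCCA), the NF-Y box (CCAAT) and the E-box (CACGTG), on either strand. Hmgcs1 and Srebf2 are shown as the members that held the sterol core, Mvk for its NF-Y boxes, Insig1 as the feedback gene, and Abca1 as the efflux gene that varied most between lines.
Hmgcs1, chr13:119690101-119690350, plus strand: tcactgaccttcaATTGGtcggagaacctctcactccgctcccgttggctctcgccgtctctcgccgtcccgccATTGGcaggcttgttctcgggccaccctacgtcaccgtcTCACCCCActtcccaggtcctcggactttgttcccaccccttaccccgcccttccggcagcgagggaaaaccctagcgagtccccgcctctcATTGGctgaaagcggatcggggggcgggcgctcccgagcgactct
Mvk, chr5:114444019-114444268, plus strand: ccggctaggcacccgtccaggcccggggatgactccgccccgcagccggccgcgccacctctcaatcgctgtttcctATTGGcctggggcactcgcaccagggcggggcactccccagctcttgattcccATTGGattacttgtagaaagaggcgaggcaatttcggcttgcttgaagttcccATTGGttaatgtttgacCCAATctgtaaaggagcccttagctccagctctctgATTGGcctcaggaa
Srebf2, chr15:82147019-82147268, plus strand: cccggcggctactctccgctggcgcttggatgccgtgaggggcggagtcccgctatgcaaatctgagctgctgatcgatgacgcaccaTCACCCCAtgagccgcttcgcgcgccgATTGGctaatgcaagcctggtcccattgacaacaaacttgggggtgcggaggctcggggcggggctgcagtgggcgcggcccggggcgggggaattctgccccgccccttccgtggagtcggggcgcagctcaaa
Insig1, chr5:28071162-28071411, plus strand: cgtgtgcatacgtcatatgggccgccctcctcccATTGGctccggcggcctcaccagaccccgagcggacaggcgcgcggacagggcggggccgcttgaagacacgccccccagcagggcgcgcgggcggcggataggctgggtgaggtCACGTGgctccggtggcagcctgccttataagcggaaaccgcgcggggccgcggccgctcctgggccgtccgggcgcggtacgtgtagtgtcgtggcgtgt
Abca1, chr4:53159896-53160145, minus strand: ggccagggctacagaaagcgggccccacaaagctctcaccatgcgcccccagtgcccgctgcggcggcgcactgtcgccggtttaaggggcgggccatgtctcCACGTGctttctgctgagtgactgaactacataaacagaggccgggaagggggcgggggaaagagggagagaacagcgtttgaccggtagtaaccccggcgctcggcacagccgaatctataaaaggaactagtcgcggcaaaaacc

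Motifs were searched on both strands of 300 bases, which run on past the gene start, for the 26 of 32 members with a promoter in the table, and neighbouring motifs can share letters (a sterol core that ends in CCA can begin an NF-Y box), which neither sterol core of the members did. The NF-Y box was in 15 of the 16 synthesis enzymes with a promoter, all but Acat2, and in 6 of the other 10 members, against 41.1% of the 27025 genes in the table. The Sp1 box (GGGCGG) was in 14 of the 16 synthesis enzymes, against 38.2% of genes. The sterol core was in 2 members, Hmgcs1, where it began 137 bases before the start, and Srebf2, where it began 162 bases before it, against 4.97% of genes. The E-box was in 6 members (Hsd17b7, Sc5d, Dhcr7, Insig1, Scap and Abca1), against 8.09% of genes. A match is a description of these letters, not a binding site, and a window without one says only that the letters are not in it. Of the windows printed, Mvk held 5 NF-Y boxes and Abca1 held none.

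Arrays differed in brightness. The brightest array had 6.11 times the mean intensity of the dimmest, so arrays were quantile-normalized for testing, as log2(intensity + 32), and levels are given as scaled intensity, each array brought to a trimmed mean of 500. By the hybridization spikes, 11 arrays were dim, those of Swiss 9, Swiss 8 and Swiss 2 with 2 of Swiss 3, and 9 were bright, those of Swiss 19, Swiss 22 and Swiss 5 with 1 of Swiss 3, with a 1.62-fold gap. On normalized values, the bright array of Swiss 3 differed from its dim arrays by a median of 0.09 log2 units over the members and 0.11 over all genes. Of 10 fibroblast markers, 9 were above background in all lines, all but Lum. Of 7 macrophage and leukocyte markers, 5 (Cd68, Lyz2, Csf1r, Adgre1 and Cd14) were above background in all 7 lines and 2 (Ptprc and Itgam) in none. The summed level of these 7 was 2131 to 2510 in preadipose and 1959 to 3107 in non-adipogenic lines, highest in Swiss 3, and their part in the sterol gene differences was not tested. A gene was above background in a line when it exceeded the 95th percentile of 27 unspiked control probe sets, which lay between 76.9 and 144 scaled intensity. All members but Abcg1 and Nr1h3 were above it in all 7 lines, and these were above it in 6.

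Between the classes, no member passed the test. Of 29 members, 0 had an adjusted p under 0.05 on the 7 line means (limma with Benjamini-Hochberg adjustment over all genes), where 279 of all genes, 1.53%, did. At an unadjusted p under 0.05 the count was 4 (Hmgcs1, Ggps1, Insig1 and Srebf1), close to the 15.6% of all genes under that limit. The differences nevertheless lay mostly on the same side: 24 of 29 were negative, meaning a lower mean in preadipose lines, against 48.6% of all genes, and their median was -0.13, against 0.0033 over all genes. Without Swiss 3 or without Swiss 19 the median over members was -0.08, with 21 of 29 negative each time. In such bulk RNA, fewer cells expressing a gene and less RNA per cell cannot be told apart. For 3 members (Hmgcs1, Ggps1 and Srebf1) all preadipose line means lay below all non-adipogenic ones, against 7.53% of all genes, and for 0 they all lay above, against 6.39%. No test was made of the members as a group.

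**Figure D1:**
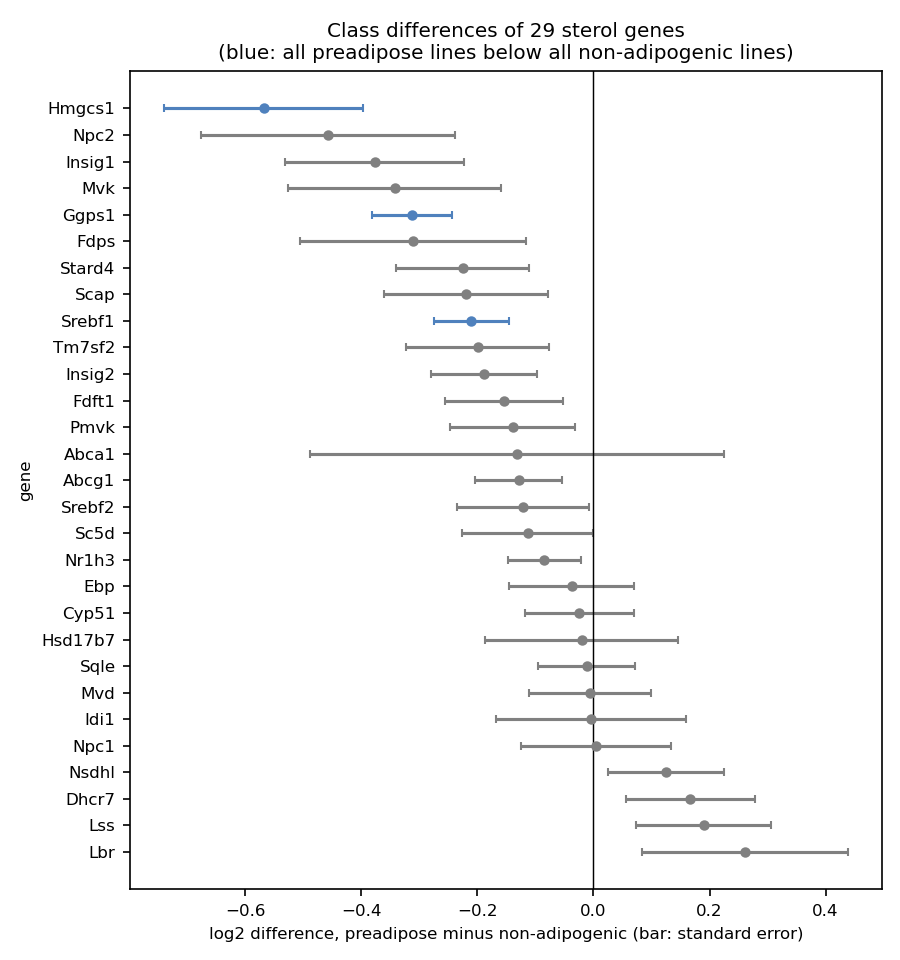
Log2 difference between the means of 4 preadipose and 3 non-adipogenic lines for each of 29 sterol genes (points, preadipose minus non-adipogenic) with its standard error from limma (bars). Points left of the line at 0 are lower in preadipose lines: 24 of 29, from -0.57 for Hmgcs1 to 0.26 for Lbr, none past the adjusted threshold.

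The mevalonate pathway, from HMG-CoA synthesis to the prenyl diphosphates, had 7 measured enzymes. All 7 class differences were negative, with a median of -0.31, but those of Mvd and Idi1 were only -0.0062 and -0.0045. Over the 7 lines, 6 of the 7 differed (limma F test, adjusted p under 0.05), all but Pmvk, where 35.8% of all genes and 57.0% of the genes above background in all lines did.

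Hmgcs1, the cytosolic HMG-CoA synthase that joins acetyl-CoA to acetoacetyl-CoA, had the largest class difference among the members. Its scaled intensity was 13978 ± 1028 for Swiss 2, 13300 ± 1117 for Swiss 8, 9377 ± 321 for Swiss 9 and 8820 ± 407 for Swiss 19, against 17785 ± 610 for Swiss 3, 17141 ± 1166 for Swiss 5 and 14681 ± 482 for Swiss 22 (SD over 3 arrays, 2 for Swiss 19). The means of the 4 preadipose lines were all below those of the 3 non-adipogenic ones. Single arrays overlapped, as those of Swiss 2 at 14733 and 14393 and of Swiss 8 at 14575 exceeded the lowest of Swiss 22, at 14144. On this probe set Swiss 9 and Swiss 19 stood below Swiss 2 and Swiss 8. Class means were 11369 ± 2646 (SD, n = 4 lines) in preadipose and 16535 ± 1638 (SD, n = 3 lines) in non-adipogenic lines, a ratio of 0.688. The log2 difference of -0.57 ± 0.17 (SE) did not pass (limma adjusted p = 0.161). It kept its sign on either side of the brightness split, at -0.65 within the dim arrays, where Swiss 3 is the only non-adipogenic line, and -0.80 within the bright ones, where Swiss 19 is the only preadipose line, and was -0.73 with the split as a block (adjusted p = 0.0748).

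Hmgcs1 had 5 probe sets, and the class difference was negative on each: -0.57 on the one used here, then -0.66, -0.66, -0.45 and -0.13, the last above background in only 2 lines. One of them was the single probe set called among all 64 of the members, at -0.66 ± 0.09 (adjusted p = 0.0265, limma over every probe set), where 0.819% of all probe sets were called. On that probe set the intensity was 4548 for Swiss 2, 5539 for Swiss 8, 4191 for Swiss 9 and 4783 for Swiss 19, so the preadipose lines lay closer together than on the brightest one and Swiss 19 was not below Swiss 2. On the other with -0.66, Swiss 2 was the lowest line, at 1990, and Swiss 19 the highest preadipose one, at 3464. The order of the non-adipogenic lines turned as well. Swiss 3 was highest on the probe set used, but on the called one Swiss 3, Swiss 5 and Swiss 22 had 7179, 7912 and 8145. On the other with -0.66 they had 3920, 4684 and 5341, and on the one with -0.45 they had 4551, 4588 and 4636. With a gene taken as the mean of its probe sets, Hmgcs1 passed at -0.49 (adjusted p = 0.0372).

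On the Hmgcs1 probe set used, Mvk, mevalonate kinase, ran with Hmgcs1 in the non-adipogenic lines but not in Swiss 2. Other Hmgcs1 probe sets above background in all lines had the non-adipogenic lines in the reverse order. The means of Mvk were 1985 for Swiss 2, 1374 for Swiss 8, 1124 for Swiss 9 and 957 for Swiss 19, against 2051 for Swiss 3, 1870 for Swiss 5 and 1594 for Swiss 22. Swiss 2 lay within the range of the non-adipogenic lines and the other 3 preadipose lines below it, so the classes overlapped (log2 difference -0.34 ± 0.18 SE, adjusted p = 0.443). The F test among the preadipose lines alone was passed (adjusted p = 1.71e-05).

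Fdps, which makes the branch point farnesyl diphosphate, had means of 9609 for Swiss 2, 11448 for Swiss 8, 6750 for Swiss 9 and 6904 for Swiss 19, against 11709 for Swiss 3, 10615 for Swiss 5 and 9209 for Swiss 22. Swiss 9 and Swiss 19 were the low lines, and Swiss 2 and Swiss 8 lay among the non-adipogenic ones (class difference -0.31 ± 0.19 SE, adjusted p = 0.530). Idi1, the isopentenyl diphosphate isomerase, had 3414 for Swiss 2, 4251 for Swiss 8, 3068 for Swiss 9 and 2266 for Swiss 19, against 2834 for Swiss 3, 3357 for Swiss 5 and 3433 for Swiss 22. For Idi1 a preadipose line was highest and another lowest, 1.88-fold apart. Mvd, the decarboxylase, was likewise lowest in Swiss 9 and differed among preadipose lines (F test, adjusted p = 0.00658).

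Ggps1, which makes geranylgeranyl diphosphate off the main path, came nearest to the class threshold. Its means were 464 ± 78 for Swiss 2, 502 ± 177 for Swiss 8, 473 ± 64 for Swiss 9 and 595 ± 83 for Swiss 19, against 796 ± 102 for Swiss 3, 641 ± 55 for Swiss 5 and 823 ± 51 for Swiss 22 (SD over arrays). No line means overlapped between classes, though single arrays of Swiss 8 and Swiss 19 reached the level of Swiss 5. The log2 difference was -0.31 ± 0.07 (SE, adjusted p = 0.0760), and within the bright arrays it was -0.17. Its 3 other probe sets gave -0.05, -0.09 and -0.15, so the size rested on the brightest one.

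**Figure D2:**
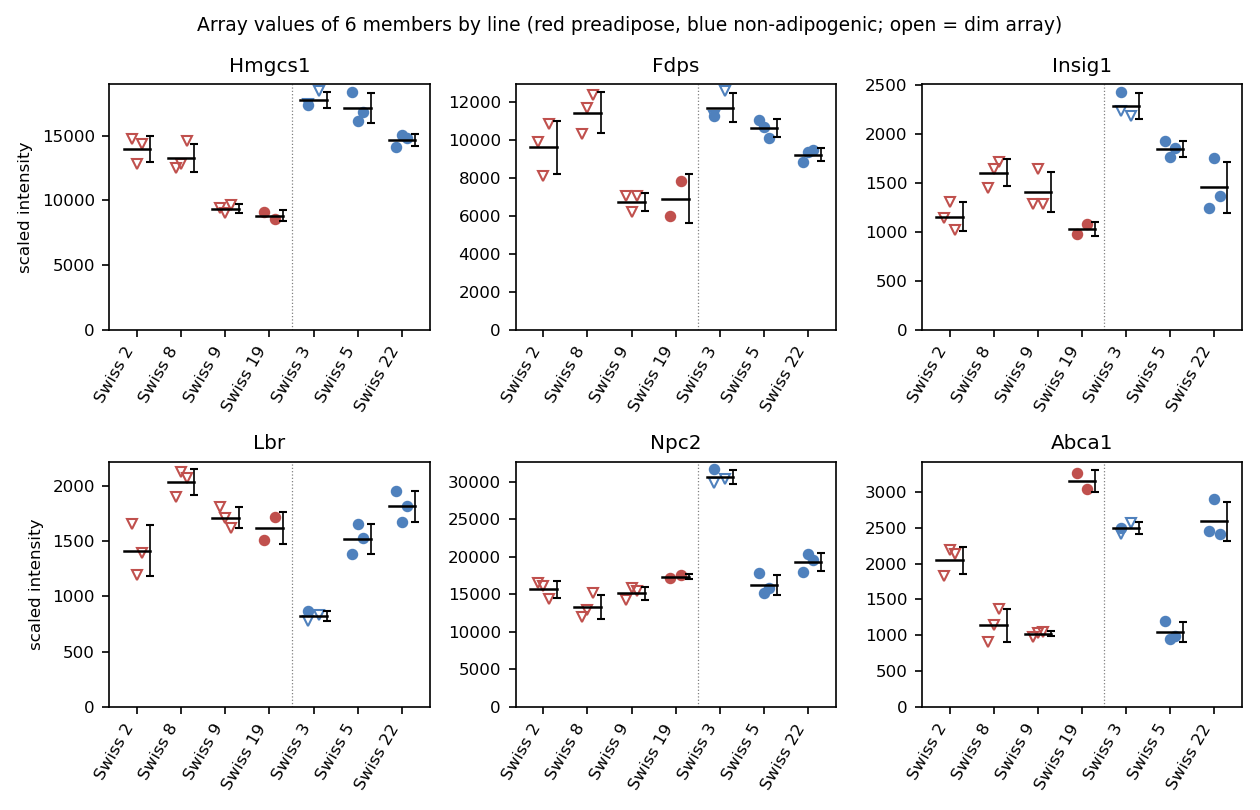
Scaled intensity of 6 members on each of 20 arrays, by line, with preadipose lines (red) left of non-adipogenic lines (blue). Open triangles are dim and filled circles bright arrays, horizontal bars are line means and vertical bars SD over arrays. For Hmgcs1 the preadipose line means run from 8820 to 13978, all below the lowest non-adipogenic mean of 14681, and Npc2 and Lbr each have Swiss 3 apart from the rest.

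From squalene onward the pattern was mixed. Of 11 enzymes, 7 had negative and 4 positive class differences, with a median of -0.02 and a range from -0.20 for Tm7sf2 to 0.26 for Lbr. Over the 7 lines, 8 of the 11 differed, against the same 57.0% of genes above background in all lines. Fdft1, squalene synthase, had a difference of -0.15, and Sqle, squalene epoxidase, and Cyp51, the lanosterol demethylase, had -0.01 and -0.02. Lss, the cyclase that makes lanosterol, had 0.19, but its probe sets disagreed: another that was above background in all lines gave -0.18.

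Lbr and Tm7sf2 both encode sterol C14 reductases, and Lbr is also a protein of the inner nuclear membrane. Lbr had means of 1414 ± 230 for Swiss 2, 2033 ± 118 for Swiss 8, 1715 ± 97 for Swiss 9 and 1618 ± 146 for Swiss 19, against 824 ± 44 for Swiss 3, 1522 ± 135 for Swiss 5 and 1818 ± 139 for Swiss 22 (SD over arrays). Swiss 3 alone stood low and the other 6 lines overlapped between the classes. Its class difference of 0.26 ± 0.18 (SE, adjusted p = 0.577) turned to -0.20 with arrays centred on their medians and to -0.33 with no normalization. Tm7sf2 ran the other way, at 443 to 629 in preadipose lines, against 933 for Swiss 3, 511 for Swiss 5 and 586 for Swiss 22. Of these only Swiss 3 lay outside the preadipose range, and across the 7 lines the correlation of these genes was r = -0.93.

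On the probe sets used, the later steps held single lines apart rather than classes. Hsd17b7, a sterol 3-keto reductase, had 994 for Swiss 2, 868 for Swiss 8, 1378 for Swiss 9 and 654 for Swiss 19, against 851 for Swiss 3, 1204 for Swiss 5 and 881 for Swiss 22. Both its extremes were preadipose lines, 2.11-fold apart, but the arrays of the low line, Swiss 19, stood at 833 and 474. Another probe set had Swiss 2 lowest, at 174, and Swiss 8 highest, at 440, while the rest kept Swiss 19 lowest and Swiss 9 highest. Dhcr7, which makes the final double bond reduction of the Kandutsch-Russell route, had a class difference of 0.17 and was highest in Swiss 2. Sc5d, the lathosterol desaturase, was highest in Swiss 8 and lowest in Swiss 9, 1.71-fold apart, on the probe set used. On its other probe sets all preadipose line means lay below all non-adipogenic ones, at 430 to 553 against 651 to 947, and at 340 to 439 against 457 to 618. Neither of these passed the class test over every probe set (limma adjusted p = 0.145 and 0.166). Ebp differed among the non-adipogenic lines (F test, adjusted p = 0.00947), and Nsdhl did not pass over the 7 lines (adjusted p = 0.0675).

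On the probe sets used, all 5 SREBP control genes had negative class differences, with a median of -0.21 and none past the threshold. Insig1, the retention protein that SREBPs themselves induce, had 1151 ± 147 for Swiss 2, 1600 ± 136 for Swiss 8, 1400 ± 206 for Swiss 9 and 1024 ± 71 for Swiss 19, against 2278 ± 132 for Swiss 3, 1845 ± 81 for Swiss 5 and 1450 ± 264 for Swiss 22 (SD over arrays). Swiss 22 lay among the preadipose lines and Swiss 3 above all others. Class means were 1294 ± 257 (SD, n = 4 lines) in preadipose and 1858 ± 414 (SD, n = 3 lines) in non-adipogenic lines (log2 difference -0.38 ± 0.15 SE, adjusted p = 0.294).

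Srebf1, which encodes the SREBP more tied to fatty acid genes, had 1120 for Swiss 2, 1047 for Swiss 8, 1292 for Swiss 9 and 1085 for Swiss 19, against 1457 for Swiss 3, 1437 for Swiss 5 and 1345 for Swiss 22. The line means did not overlap between classes, but the span was narrow, 1.39-fold between Swiss 3 and Swiss 8, and neither the class test (-0.21 ± 0.07 SE, adjusted p = 0.171) nor the F test (adjusted p = 0.0941) was passed. Srebf2, whose SREBP mainly drives cholesterol genes, had -0.12 and was lowest in Swiss 9 on the probe set used. A second probe set for it gave -0.28, with all preadipose lines, at 1508 to 1772, below all non-adipogenic ones, at 1978 to 2216. There Swiss 19 had the lowest scaled intensity, and the class test over every probe set was not passed (limma adjusted p = 0.131).

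Scap, the escort protein, followed the mevalonate enzymes. Its means were 3844 for Swiss 2, 3858 for Swiss 8, 2574 for Swiss 9 and 2811 for Swiss 19, against 4058 for Swiss 3, 3670 for Swiss 5 and 3829 for Swiss 22. Swiss 9 and Swiss 19 were the low lines, while the other 5 lay close together (class difference -0.22 ± 0.14 SE, adjusted p = 0.548). Insig2, the second retention protein, had -0.19 and did not differ over the 7 lines on the probe set used (F test, adjusted p = 0.133). Its other probe sets gave 0.06 and -0.03. The first of these passed the F test over every probe set (adjusted p = 0.0371) and the second did not (adjusted p = 0.0917).

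Npc2, the lysosomal protein that hands cholesterol to NPC1, was set by a single line. It had 15667 ± 1141 for Swiss 2, 13305 ± 1659 for Swiss 8, 15153 ± 864 for Swiss 9 and 17359 ± 321 for Swiss 19, against 30664 ± 924 for Swiss 3, 16270 ± 1352 for Swiss 5 and 19298 ± 1240 for Swiss 22 (SD over arrays). Swiss 3 was far above the rest and Swiss 5 lay within the preadipose range. The class difference of -0.46 ± 0.22 (SE, adjusted p = 0.383) was -0.20 without Swiss 3, and it was -1.05 within the dim arrays, where Swiss 3 is the only non-adipogenic line. Npc1, the membrane partner, had 0.0037 and was 2.75-fold higher in Swiss 19 than in Swiss 8. Stard4, a cytosolic sterol carrier, had -0.23.

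Abca1, the transporter that passes cholesterol to lipid-poor apolipoprotein and an LXR target, varied most of all members and hardly by class. Its means were 2047 ± 189 for Swiss 2, 1137 ± 233 for Swiss 8, 1019 ± 34 for Swiss 9 and 3152 ± 149 for Swiss 19, against 2490 ± 83 for Swiss 3, 1044 ± 137 for Swiss 5 and 2590 ± 271 for Swiss 22 (SD over arrays). Swiss 8, Swiss 9 and Swiss 5 formed a low level and the other 4 a high one, with both classes in each, and Swiss 19 was 3.09-fold above Swiss 9. Of its sum of squares, 92.3% was due to the clone within its class and 4.05% to the class. Its F test gave adjusted p = 8.60e-09. The other LXR-linked members, Abcg1 and the receptor gene Nr1h3, lay near background and did not pass the F test (adjusted p = 0.395 and 0.757).

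Many members differed between lines, while none was called between the classes. The line test rests on 20 arrays and the class test on 7 line means, so their counts are not alike. By the F test over 7 lines 21 of 29 members were called, against 35.8% of all genes. Because dim genes are called less often, the closer background is the genes above background in all lines, of which 57.0% were called, against 21 of 27 such members, 77.8%. Among the preadipose lines alone 16 members were called, against 23.2% of genes, and among the non-adipogenic lines 9, against 16.4%. For these counts, and for the sums of squares and pairs of lines below, the background is all genes, dim ones included. Of the sum of squares of a member, the class took a median of 16.6%, the clone within its class 55.7% and the repeat arrays 28.98%, where the median gene had 6.74%, 32.5% and 52.1%. These shares do not rank clone against class, because the class share rests on a single contrast and the clone share on several.

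On the probe sets used, Swiss 3 was the highest line for 12 of 29 members, among them Hmgcs1, Mvk, Fdps, Fdft1, Insig1 and Scap. For Hmgcs1, Swiss 22 was highest on its other probe sets above background in all lines. Of all genes above background in all lines, 22.1% were highest in Swiss 3. Swiss 9 or Swiss 19 was the lowest line for 17 of 29, against 28.4% of those genes. These lines held the most minima, 9 and 8, so that share is not an independent yardstick. The places of Swiss 19 and Swiss 3 depended on the normalization. In Swiss 19 over Swiss 3, 1 member was higher and 11 lower, but with median centring 22 were higher and 0 lower. With scaling before the pseudocount 1 was higher and 7 lower. Swiss 3 over Swiss 5 had 4 higher and 1 lower, but 1 and 20 when centred, and 4 and 1 when scaled first. Swiss 3 over Swiss 22 had 7 higher and 1 lower, but 0 and 26 when centred, and 2 and 1 when scaled first. Swiss 9 over Swiss 3 had 2 higher and 12 lower, and 2 and 11 when centred. Over all 21 pairs of lines, 170 of 609 member differences passed (27.9%), against 13.9% of all gene differences. Pairs of a dim and a bright line are among them, so below only the 6 pairs on the same side of the brightness split are described one by one.

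**Figure D3:**
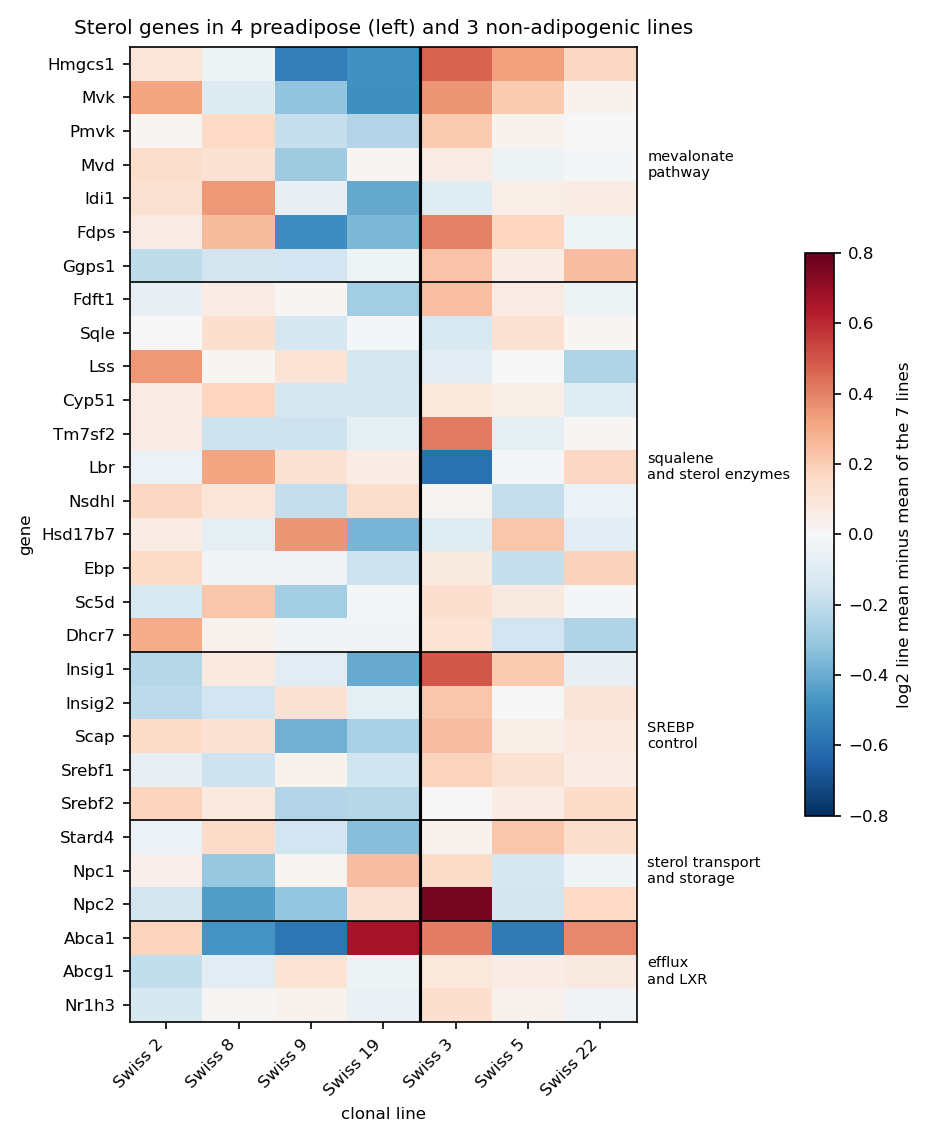
Log2 line mean minus the mean of the 7 lines for 29 sterol genes in pathway order, with 4 preadipose lines left and 3 non-adipogenic lines right of the heavy line. Red is above and blue below the mean of the lines, from -0.8 to 0.8. On these quantile-normalized values, the mevalonate genes are mostly blue in Swiss 9 and Swiss 19 and mostly red in Swiss 3. Abca1 is blue in Swiss 8, Swiss 9 and Swiss 5.

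Within the preadipose class, Swiss 8 and Swiss 9 are both dim lines of similar intensity. In Swiss 8 over Swiss 9, 8 members were higher and 2 lower, where 7.39% of genes differed, though centred on array medians the counts became 2 and 2. With scaling before the pseudocount 6 were higher and 1 lower. Fdps was 0.75 ± 0.10 (SE) log2 units higher in Swiss 8 (adjusted p = 2.89e-05), Hmgcs1 0.51 ± 0.07 (adjusted p = 5.39e-05), Sc5d 0.50 ± 0.08 and Scap 0.50 ± 0.08. Mvd, Idi1, Cyp51 and Stard4 were higher by 0.31 to 0.41, and Hsd17b7 and Npc1 were lower, at -0.43 and -0.32. With arrays centred on their medians Fdps had 0.52 and Hsd17b7 -0.51, both still called, and Hmgcs1, Scap and Idi1 had 0.29, 0.32 and 0.23 and were not.

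Across the classes, Swiss 19 and Swiss 22 are both bright lines. In Swiss 19 over Swiss 22, 0 members were higher and 8 lower, where 10.6% of genes differed, and centring on medians gave 1 and 7. Hmgcs1 was lower, with a difference of -0.65 ± 0.08 (SE, adjusted p = 1.04e-05), as were Mvk at -0.51 ± 0.09 (adjusted p = 7.78e-04), Stard4 at -0.48 ± 0.11 and Idi1 at -0.47 ± 0.09. Ebp, Insig1, Scap and Srebf2 were lower too, with differences of -0.34 to -0.37. Hmgcs1, Mvk, Idi1 and Scap had -0.69, -0.62, -0.54 and -0.40 with arrays centred on their medians, all still called, and Insig1 had -0.41 and was not.

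**Figure D4:**
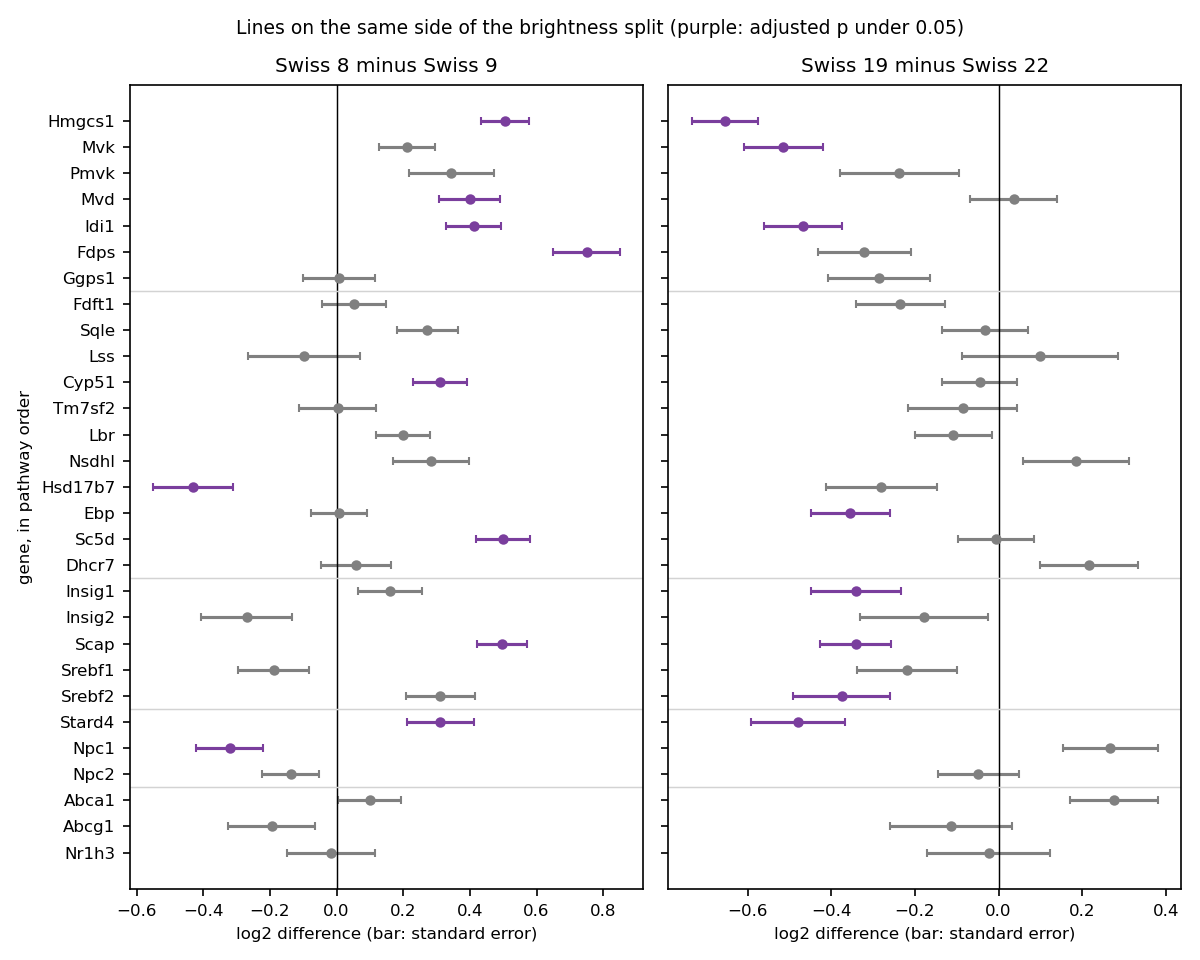
Log2 differences of 29 sterol genes between lines of like brightness, Swiss 8 minus Swiss 9 (left) and Swiss 19 minus Swiss 22 (right), with standard errors from the fit on all arrays. Purple points passed an adjusted p of 0.05: 10 genes on the left, 8 of them positive, and 8 on the right, all negative.

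In Swiss 19 over Swiss 5, the other bright pair across the classes, 2 members were higher (Abca1 and Npc1) and 9 lower, where 11.6% of genes differed, but with median centring the counts turned to 7 higher and 2 lower. With scaling before the pseudocount 2 were higher and 7 lower. Abca1 was higher by 1.22 ± 0.11 (SE, adjusted p = 1.74e-07), and by 1.79 when centred. Hmgcs1 was lower, at -0.82 ± 0.08 (adjusted p = 7.46e-07), and so was Mvk, at -0.70 ± 0.09, and centred they had -0.46 and -0.44, both still called. Scap had -0.31, which turned to 0.09 when centred.

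In Swiss 2 over Swiss 9, 9 members were higher and 0 lower, where 13.7% of genes differed, but with median centring 0 were higher and 10 lower. With scaling before the pseudocount 6 were higher and 0 lower. Hmgcs1 had 0.65 and turned to -0.08 when centred, and Mvk had 0.63 and 0.11. Swiss 2 held the dimmest arrays, with mean intensities of 25.6 to 30.6, against 37.8 to 52.5 in Swiss 9. In Swiss 2 over Swiss 8, 4 members were higher and 3 lower, where 10.8% of genes differed, and centring gave 0 and 11. Abca1 had the largest of these differences, 0.66 ± 0.09 (SE, adjusted p = 6.83e-05).

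In Swiss 5 over Swiss 22, both non-adipogenic, 0 members were higher and 3 lower, where 4.11% of genes differed, and centring gave 0 and 13. Abca1 was lower, at -0.95 ± 0.09 (SE, adjusted p = 1.02e-06) and at -1.50 when centred, as were Ebp at -0.38 and Npc2 at -0.31. On quantile-normalized values no mevalonate enzyme passed between these 2 lines.

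As a description over 7 points that share the normalization, mevalonate genes varied together more than the set as a whole. The median correlation between line means was 0.54 over the 21 pairs of mevalonate genes, 0.44 over the 10 pairs of SREBP control genes, 0.09 over the 55 pairs of later enzymes and 0.22 over all 406 pairs of members. The closest pairs were Pmvk with Fdps (r = 0.96), Fdft1 with Insig1 (0.95), Fdps with Scap (0.94), Insig2 with Abcg1 (0.92), Hmgcs1 with Mvk (0.92) and Hmgcs1 with Scap (0.91). Of these genes, Pmvk, Insig2 and Abcg1 did not pass the F test over 7 lines (adjusted p = 0.0960, 0.133 and 0.395), and Abcg1 lay near background. All these correlations rest on the probe sets used. Other Hmgcs1 probe sets above background in all lines had r = 0.52, 0.82 and 0.89 with the one used. Abca1 had r = 0.09 with Hmgcs1 and its highest values with Npc1 (0.76) and Npc2 (0.71).

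Other probe sets of the members mostly pointed the same way. Of 64 probe sets, 35 stood beside the one used, from 18 genes, and 28 of the 35 had the same sign of class difference. Of the 25 above background in all lines, 22 did. The 2 other bright probe sets of Npc2 gave -0.44 and -0.39. Those of Sc5d gave -0.23 and -0.33, against -0.11 on the one used.

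Of 35 further sterol genes, 30 were measured and 1 was called between the classes, where 1.53% of all genes were. Ch25h, which makes the oxysterol 25-hydroxycholesterol, an inhibitor of SREBP processing, fell in preadipose lines. It had 399 for Swiss 2, 323 for Swiss 8, 414 for Swiss 9 and 653 for Swiss 19, against 1632 for Swiss 3, 1342 for Swiss 5 and 1063 for Swiss 22. All preadipose lines were below all non-adipogenic ones, at class means of 447 ± 143 (SD, n = 4 lines) and 1346 ± 284 (SD, n = 3 lines), a ratio of 0.332 (log2 difference -0.95 ± 0.14 SE, limma adjusted p = 0.0255). Leaving out any one of the lines other than Swiss 19 raised the adjusted p to values between 0.0535 and 0.0851, and within the bright arrays, where Swiss 19 is the only preadipose line, the difference was -0.70. Mylip, the ligase that degrades lipoprotein receptors and an LXR target, had 1014 ± 184 and 1895 ± 477 in preadipose and non-adipogenic lines and did not pass (-0.64, adjusted p = 0.0951).

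Genes that use or share the pathway's products and regulators showed no called member. Of 14 genes of the prenyl branch, 12 were measured and 0 were called, with the largest differences for Pggt1b (-0.29, adjusted p = 0.184), a subunit of geranylgeranyl transferase, and Coq2 (-0.20). All 13 fatty acid genes under SREBP control were measured and 0 were called, 8 of them with negative differences and a median of -0.04. Scd1, the stearoyl desaturase, had -0.35 (adjusted p = 0.235) and Fads1 -0.32.

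Markers of dividing cells had class differences of the opposite sign to most sterol genes. Of 10, 9 were measured and all 9 had positive class differences, with a median of 0.49 and 0 called, led by Pcna (0.80, adjusted p = 0.0847) and Mcm2 (0.69, adjusted p = 0.200). Their summed level was 39774 to 62919 in preadipose and 20335 to 44285 in non-adipogenic lines. It was lowest in Swiss 3, which was the highest line for 12 of the 29 members on the probe sets used. Their part in the sterol gene differences was not tested. Of the markers of leukocytes, mature adipocytes, epithelium, endothelium and hepatocytes, 0 were called, and Lum, a proteoglycan of fibroblasts, was the only fibroblast marker called (-1.21, adjusted p = 0.0109).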

How the data were processed

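RNA of 20 arrays of 7 clonal Swiss 3T3 lines was labelled by in vitro transcription from oligo-dT-primed cDNA and hybridized to 3′ oligonucleotide arrays, per the labels. The deposited values were linear intensity values per probe set. The sources used here give neither their summarization nor their scaling. Of 45101 probe sets, 64 were controls, 34945 had 1 gene symbol in the platform annotation, 932 had several and 9160 were not named here. The number of arrays limits the precision.

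From the deposited intensity, log2(intensity + 32) was taken and quantile-normalized, and each gene was represented by its brightest probe set with 1 symbol, with no filter. The pseudocount compresses log2 differences of dim genes. Median centring was applied after the pseudocount, so log2 values of dim arrays stay compressed in that setting. Scaled intensity brings each array to a mean of 500 after trimming 2% at each end. Ratios of class means are of scaled intensity.

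The arrays of each line were averaged, and the resulting 7 means were fitted by class in limma 3.58.1 (R 4.3.3; lmFit, eBayes), with Benjamini-Hochberg adjustment over 18193 genes at 0.05. Lines were compared by limma's moderated F test on 20 arrays, and pairs of lines adjusted over all genes and all 21 pairs. Both steps were tested on simulated data. The brightness split falls where the arrays' mean log2 level over 9 spike probe sets has its widest gap. No scan batch was used. Replicate numbers did not pair the arrays: deviations of same-numbered arrays from their line means correlated at -0.06 to 0.08 (57 pairs), and 8 of 20 arrays were nearest to their own number. No arrays were identical.

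Members and lists were chosen with earlier results of these data known. Values in every line are given for members that passed the class test, that had no overlap of line means, or that, among those called by the F test, had one of the 10 widest ranges of line means. From each list up to 4 called genes are named, or with none called up to 2 with the largest difference. Mylip, Ptprc and Itgam were named after their values were seen.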

Additional observations from a re-analysis of the deposited data

How the results depend on the processing

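The count of members called between the classes was 0 in the main setting and remained 0 under 38 of 41 alternatives, among them median centring, no normalization, scaling before the pseudocount, smaller and larger pseudocounts, a filter on dim genes, the brightness split as a block and the spike level as a covariate, and without each array or line in turn (0 to 0). It was 1 with the mean of a gene's probe sets (Hmgcs1), 1 within the dim arrays (Npc2), where Swiss 3 is the only non-adipogenic line and is assumed to vary like the preadipose lines, and 4 when 20 arrays were fitted with the line as a random block (Hmgcs1, Ggps1, Insig1 and Npc2), where 2061 of all genes were called and the estimated correlation of arrays of a line was 0.258. With the replicate block the count was 0 and 25 differences were negative, and 292 of all genes were called between the classes. The number of members called by the F test was 21, between 18 and 29 over all alternatives, 19 to 22 without single arrays, 21 with the replicate block and 20 with the brightness block. Median centring called 75.3% of all genes by the F test. The class difference of Lbr was 0.26, and turned to -0.20 with median centring and to -0.33 with no normalization, and the cause was not tested. Between 20 and 29 class differences were negative over all settings. All genes called between the classes numbered 279, against 7 with median centring, 2 with no normalization, 87 with scaling before the pseudocount and 424 without dim genes. With no normalization the median difference of all genes was -0.19 and that of the members -0.65. The 3 members with all preadipose lines below all others became 0 with median centring or no normalization, 5 without Swiss 2 or Swiss 9 and 6 without Swiss 8 or Swiss 22. With no normalization, members higher and lower were 1 and 1 in Swiss 8 over Swiss 9, 2 and 2 in Swiss 19 over Swiss 22, 13 and 0 in Swiss 19 over Swiss 5 and 0 and 9 in Swiss 2 over Swiss 9. With scaling before the pseudocount, the same pairs had 6 and 1, 0 and 6, 2 and 7, and 6 and 0. Ch25h was also no longer called with median centring (limma adjusted p = 0.910), no normalization (0.883), the spike level as a covariate (0.0978) and the brightness block with Swiss 3 by its dim arrays (0.0532). Probe sets near background limit Abcg1 and Nr1h3.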
